A study of Mus musculus with 20 samples.

Results

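The genes described here are 59 genes of cell division, 29 of mitosis, 27 of DNA replication and 3 of G1/S control, among the 14633 genes of the deposited table. They were chosen by name as a cell cycle module, with earlier results of these data known. All 59 were in the table, and 59 of 59 passed the filter on low values that left 14385 genes for testing. Poly-A RNA-seq measured their transcripts in tumors of HEPA1-6, a mouse hepatoma line, that grew under the skin of C57/BL6 mice for 4 weeks. The groups were control antibody (n = 4 libraries, replicates 1, 2, 3 and 5), control antibody plus GSK343 (n = 5), anti-CXCL10 antibody (n = 5) and anti-CXCL10 antibody plus GSK343 (n = 5), so every tumor received an antibody. The control antibody sample numbered 4 was not analysed here. GSK343 is a small-molecule inhibitor of EZH2, and CXCL10 is a chemokine that draws T cells and NK cells carrying its receptor CXCR3. The labels give neither a dose nor a schedule for GSK343 or the antibodies, and the tumors hold both HEPA1-6 cells and cells of the host.

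A dividing cell copies its genome in S phase and separates the copies in mitosis. Replication genes are switched on around the G1/S transition, mainly by E2F factors, and they encode the MCM helicase, the polymerases, the sliding clamp and the enzymes that make nucleotides. Mitosis genes peak in G2 and M phase, when complexes holding MuvB, B-MYB and FOXM1 act at promoters that often carry a CHR element and CCAAT boxes. EZH2, the enzyme that methylates histone H3 in Polycomb repressive complex 2, is itself a gene that E2F factors switch on. Levels of these transcripts are often used as a readout of proliferation in hepatoma. In bulk tumor RNA, fewer dividing cells and less RNA per dividing cell cannot be told apart.

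Values are FPKM, fragments scaled to gene length and to the mapped fragments of the library, which summed to between 533606 and 629679 per library. Sequencing depth is unknown, so no counting error accompanies a value. Of 24 hepatocyte and hepatoma markers listed, 24 were in the table. Alb was at 1819 to 4401 FPKM and Afp at 1427 to 3499 FPKM per library. Others of the list were low, such as Serpina1a (0.231 to 6.89 FPKM), Igf2 (1.32 to 4.24 FPKM) and Apoh (0 to 16.7 FPKM). The sum of the list is mostly Alb, Afp, Trf, Krt18 and Krt8. The hepatoma marker sum was 8709 to 11190 FPKM with control antibody and 6020 to 8560 FPKM with GSK343 added. In the latter group macrophage, T cell, NK cell, B or plasma cell, fibroblast, endothelial and skeletal muscle sums reached higher. The hepatoma sum was 9189 to 13750 FPKM with anti-CXCL10 and 8701 to 13190 FPKM with both agents. Whether the tumors grew in separate animals is not in the labels, so a p-value reflects only how far these samples scatter, technical scatter included. The numbering of the sequencing files restarts between the control antibody groups and the anti-CXCL10 groups, so an effect of that numbering and one of the antibody cannot be told apart, while each GSK343 comparison lies within one numbering.

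Before the values, 5 promoters are shown, because the mitosis and the replication genes of the module held the searched letters in unlike shares. The 5 were picked by name from a longer list of candidates, so they are examples and do not stand for the module. RefSeq (build GRCm38.p6) gave a window of 250 bases before to 50 bases after the start for 49 of 59 members. Both strands were searched for the CHR letters TTTGAA or TTCGAA (the latter reads the same on both strands), for the CCAAT box CCAAT, and for the E2F letters TTTGGCGC, TTTCCCGC, TTTGCCGC or TTTCGCGC. A CHR match and a CCAAT match together were in 16 of 24 mitosis genes (66.7%), in 4 of 23 replication genes (17.4%) and in 8.61% of the 27025 genes with a window. An E2F match was in 10 of 23 replication genes (43.5%), in 1 of 24 mitosis genes (4.17%) and in 2.60% of all genes. CHR letters alone were in 75.0% of the mitosis genes, 21.7% of the replication genes and 21.7% of all genes, and CCAAT letters in 75.0%, 60.9% and 41.1%. Neither of the pair of G1/S genes with a window held any of these letters. A match describes letters and is not a measured binding site. The lines below print the 160 bases before the start, 5′ to 3′ on the gene's strand, with matches in capitals on either strand. Overlapping matches run together in the capitals of Mcm5 and Mcm6, and all 5 stretches lie before the gene as the deposited table places it.
Top2a (chr11:99024190-99024349, minus strand): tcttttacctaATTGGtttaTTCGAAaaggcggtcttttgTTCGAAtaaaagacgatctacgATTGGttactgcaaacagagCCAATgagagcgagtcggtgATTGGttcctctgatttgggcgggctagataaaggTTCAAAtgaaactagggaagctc
Kif11 (chr19:37376222-37376381, plus strand): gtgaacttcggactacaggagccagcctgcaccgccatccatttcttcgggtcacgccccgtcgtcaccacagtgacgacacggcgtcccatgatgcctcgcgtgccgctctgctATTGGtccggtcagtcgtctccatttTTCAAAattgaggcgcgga
Ccnb2 (chr9:70421555-70421714, minus strand): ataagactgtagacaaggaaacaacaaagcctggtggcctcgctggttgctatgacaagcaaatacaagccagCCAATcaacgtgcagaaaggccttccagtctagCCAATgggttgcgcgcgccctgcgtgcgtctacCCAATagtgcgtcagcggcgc
Mcm5 (chr8:75109349-75109508, plus strand): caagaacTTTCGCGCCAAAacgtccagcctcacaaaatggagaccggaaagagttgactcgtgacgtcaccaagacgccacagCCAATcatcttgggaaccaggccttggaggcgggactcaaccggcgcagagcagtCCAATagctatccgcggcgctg
Mcm6 (chr1:128359706-128359865, minus strand): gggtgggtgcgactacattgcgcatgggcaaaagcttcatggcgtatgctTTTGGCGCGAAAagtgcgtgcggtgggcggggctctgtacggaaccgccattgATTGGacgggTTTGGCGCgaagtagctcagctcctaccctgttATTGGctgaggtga
In Ccnb2 the capitals are 3 CCAAT boxes, which begin at positions -87, -54 and -21 from the start, and its CHR matches, at -167 and 5, lie outside the printed bases. Top2a holds CCAAT boxes on both strands and several CHR matches, and Kif11 a CCAAT box followed by a CHR match that begins at -19. Mcm5 and Mcm6 pair E2F letters with CCAAT boxes.

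The members were expressed in every library. Mean levels over the 19 libraries ran from 3.06 FPKM for Pole, the catalytic subunit of polymerase epsilon, to 98.2 FPKM for Top2a, a 32.1-fold range. The median of the members' means was 20.1 FPKM against 9.36 FPKM for all tested genes, and 47 of 59 members were above the latter. Among the mitosis genes Top2a, the topoisomerase that untangles sister chromatids, Bub3, a checkpoint protein (97.6 FPKM), and Cdk1, the kinase of mitotic entry (60.2 FPKM), were highest. Cenpf, a protein of the outer kinetochore, was lowest at 6.20 FPKM. Among the replication genes Pcna, the sliding clamp, was highest at 97.8 FPKM. Next came the helicase subunits Mcm6 (67.6 FPKM) and Mcm7 (58.8 FPKM) and the clamp loader subunit Rfc3 (55.2 FPKM). Pole and the licensing factor Cdc6 (3.41 FPKM) were lowest. The G1/S members, the cyclins Ccne1 and Ccne2 and the transcription factor E2f1, lay together at 7.73 to 7.85 FPKM.

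FPKM values of partners in one complex or step were unequal, and several ratios kept their direction in 19 of 19 libraries. A ratio between genes also depends on the gene length used for scaling. A kept direction therefore does not by itself show unequal transcript numbers. Ccnb2 exceeded Ccnb1, the other B-type cyclin, in 19 of 19, with a median ratio of 1.32 (lowest 1.03, highest 1.68). Rrm1, the large subunit of ribonucleotide reductase, exceeded the small subunit Rrm2 in 19 of 19, with a median ratio of 1.64. The MCM2 to MCM7 proteins form a ring with equal numbers of each. In transcript FPKM Mcm6 was the highest of the 6 in 17 libraries and Mcm5 the lowest in 19, with a median Mcm6 to Mcm5 ratio of 3.49. Nuf2 exceeded its partner Ndc80 in 19 of 19 (median ratio 1.62). Pold1, the catalytic subunit of polymerase delta, exceeded Pole in 19 of 19 (median ratio 9.96). Cdt1 exceeded Cdc6, its partner in loading the helicase, in 19 of 19 (median ratio 8.74). Ccne1 and Ccne2 had no such order, with Ccne1 higher in 10 libraries.

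Spread between libraries was small for most of the module. The coefficient of variation over 19 libraries had a median of 13.8% for the members and 18.6% for all tested genes. The SD within groups, on the log2(FPKM + 1) scale, had a median of 0.174 for the members and 0.214 for all tested genes. Below the latter were 41 of 59 members. These comparisons were not matched for level, and the median of the means was 20.1 FPKM for the members and 9.36 FPKM for all tested genes. The highest library was less than 2-fold above the lowest for 46 of 59 members. Steadiest were the helicase subunits Mcm2 (coefficient of variation 8.41%) and Mcm6 (8.68%) and the checkpoint gene Bub3 (8.75%). Most variable were the flap endonuclease Fen1 (42.6%), Rfc3 (30.1%), the spindle midzone protein Prc1 (27.6%), Cdc6 (27.4%) and the replication initiation factor Mcm10 (23.5%). The map of every member by library shows these as rows of strong colour among mostly pale ones.

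**Figure D1:**
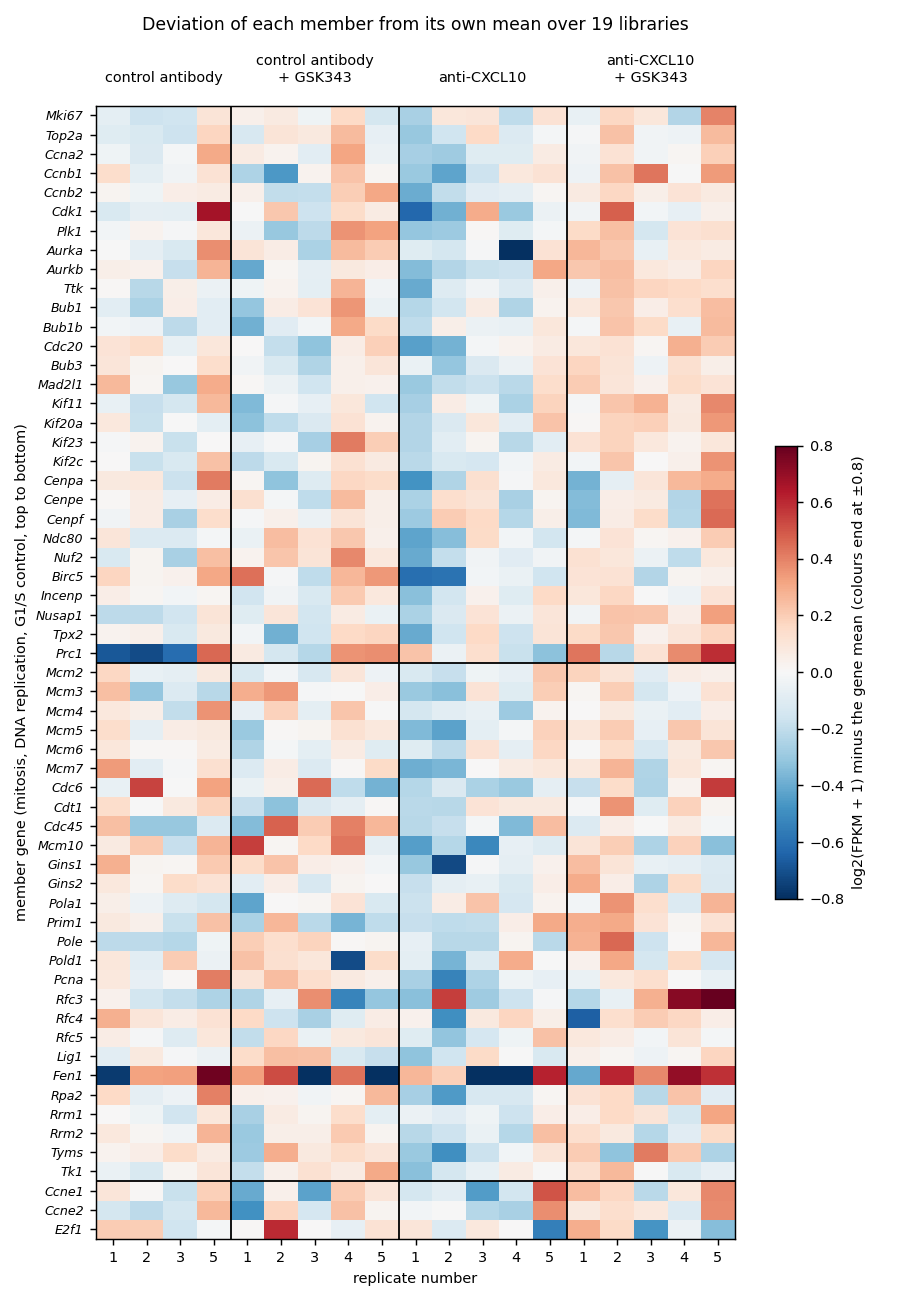
Each row is 1 of the 59 members and each column 1 of the 19 libraries, grouped by treatment, and colour gives log2(FPKM + 1) minus the gene's mean over the 19 libraries (red higher, blue lower). Prc1 is blue in control antibody replicates 1, 2 and 3, Fen1 is blue in 6 libraries, and many rows are blue in anti-CXCL10 replicates 1 and 2.

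Fen1 split into separate low and high libraries that did not follow the treatments. It was at 5.51 to 12.8 FPKM in 6 libraries, of which 1 had control antibody, 2 control antibody plus GSK343, 2 anti-CXCL10 and 1 both agents, and at 19.9 to 30.4 FPKM in the other 13. Fen1 (ENSMUSG00000024742, chr19:10199132-10204169, minus strand) overlaps the start of Tmem258 on the opposite strand. Tmem258 was at 91.1 to 145.7 FPKM in the 6 libraries where Fen1 was low and at 53.4 to 86.5 FPKM in the 13 where it was high. No source used here gives the strand setting of the authors' counting, and whether fragments of one gene were assigned to the other was not tested. Fen1 is therefore uncertain below. Another 14 members also overlap a listed gene, among them Top2a, Ccna2, Cdc20, Cdc45, Rfc4, Mcm7 and Tk1.

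The mitosis members in the next paragraphs are given library by library, in FPKM, in the order of the replicate numbers. Mki67 (ENSMUSG00000031004, chr7:135689788-135716379, minus strand) encodes Ki-67, the protein stained to count cycling cells. With control antibody it was at 20.9, 19.6, 19.7 and 23.8, and with GSK343 added at 22.8, 23.3, 21.6, 24.8 and 19.99. With anti-CXCL10 Mki67 was at 18.3, 23.6, 23.7, 19.1 and 24.1, and with GSK343 added at 21.2, 24.9, 23.7, 18.6 and 29.4. All 4 groups overlapped, and the group means ran from 21 ± 1.98 (SD, n = 4) to 23.6 ± 4.07 (SD, n = 5). Top2a (ENSMUSG00000020914, chr11:98992943-99024189, minus strand) was at 91.3, 89.6, 86.9 and 110.3 with control antibody and at 89.1, 105, 103, 116 and 93.1 with GSK343 added. It was at 78.8, 87.3, 109, 90.3 and 96.8 with anti-CXCL10 and at 96.8, 115, 95.9, 94.8 and 117 with both agents. Its lowest value was in anti-CXCL10 replicate 1 and the groups again overlapped.

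Cdk1 pairs with the cyclins Ccnb1 and Ccnb2 to drive entry into mitosis. Cdk1 (ENSMUSG00000019942, chr10:69336635-69352938, minus strand) was at 54.1, 56.1, 55.9 and 94.2 with control antibody and at 58.8, 68.8, 52.5, 65.3 and 61.7 with GSK343 added. It was at 37.8, 44.9, 72.7, 47.8 and 57.2 with anti-CXCL10 and at 57.9, 82.4, 58.1, 56.2 and 60.8 with both agents. Single libraries stood high, control antibody replicate 5 and replicate 2 of both agents, and the other libraries of these groups lay close together. Ccnb1 (ENSMUSG00000041431, chr13:100778650-100786570, minus strand) was at 23.2, 19.7, 20.5 and 22.7 with control antibody and 17.5, 14.9, 21.3, 24.7 and 21.2 with GSK343 added. It was at 16.8, 15.3, 18.6, 22.3 and 22.8 with anti-CXCL10 and 20.3, 24.8, 28.6, 20.9 and 26.8 with both agents. Replicates 2, 3 and 5 of both agents lay above all libraries of the other 3 groups, the first of them only just. Ccnb2 was at 21.4, 24.7, 26.6, 26.9 and 28.8 with anti-CXCL10 and at 29.9, 32.1, 29.4, 30.7 and 29.9 with both agents. Those 2 groups did not overlap, while with control antibody Ccnb2 was at 28.9, 27.8, 29.5 and 29.8 and with GSK343 added at 29.3, 24.7, 24.8, 32.7 and 35.5, which reached below and above the control range.

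Plk1 and Aurkb are kinases of mitosis, and Cdc20 switches on the ubiquitin ligase that ends metaphase. Plk1 (ENSMUSG00000030867, chr7:122159437-122169875, plus strand) was at 20.8, 21.6, 20.98 and 22.6 with control antibody and 20.4, 16.96, 18.1, 27.4 and 26.6 with GSK343 added. It was at 16.8, 17.1, 21.2, 19.7 and 20.9 with anti-CXCL10 and 23.6, 25.1, 19.1, 22.9 and 23.2 with both agents. Control antibody libraries were tightly spaced, whereas GSK343 with control antibody held the 2 highest values and also low ones. Aurkb was at 20.6, 20.4, 17.4 and 24.2 with control antibody and 14.7, 20.2, 18.9, 21.1 and 20.7 with GSK343 added. It was at 15.5, 16.8, 17.4, 17.6 and 24.9 with anti-CXCL10 and 23.3, 23.8, 21.1, 20.8 and 22.5 with both agents. Without anti-CXCL10 replicate 5, its anti-CXCL10 libraries all lay below those with both agents. Cdc20 was at 35.4, 36.3, 31.4 and 34.9 with control antibody and 32.9, 28.5, 26.1, 34.2 and 37.5 with GSK343 added. It was at 23.96, 24.9, 32.4, 33.5 and 34.4 with anti-CXCL10 and 35.03, 35.6, 33.1, 40.04 and 37.9 with both agents. Anti-CXCL10 replicates 1 and 2 were the lowest of 19.

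Kif11 is the motor that pushes spindle poles apart, Cenpa the histone H3 variant of centromeres and Birc5 (survivin) a subunit of the chromosomal passenger complex. Kif11 (ENSMUSG00000012443, chr19:37376403-37421859, plus strand) was at 13.9, 12.7, 13.1 and 17.6 with control antibody and 11.2, 14.4, 13.9, 15.5 and 12.9 with GSK343 added. It was at 11.9, 15.2, 14.2, 12.1 and 16.6 with anti-CXCL10 and 14.4, 17.1, 17.9, 15.3 and 19.3 with both agents. The groups overlapped, with both agents holding the highest library. Cenpa was at 23.2, 23.2, 19.3 and 29.5 with control antibody and 22.1, 17.3, 20.3, 24.6 and 24.2 with GSK343 added. It was at 15.4, 18.3, 23.9, 21.7 and 23.3 with anti-CXCL10 and 16.6, 20.8, 23.4, 26.4 and 27.1 with both agents, and all groups overlapped. Birc5 (ENSMUSG00000017716, chr11:117849251-117855743, plus strand) was at 57.8, 51.97, 52.5 and 63.6 with control antibody and 69.97, 50.9, 44.5, 61.8 and 65.3 with GSK343 added. It was at 33.4, 33.7, 50.3, 49.4 and 45.7 with anti-CXCL10 and 55.4, 55.5, 43.5, 51.9 and 52.8 with both agents. Every anti-CXCL10 library lay below every control antibody library. Prc1, which bundles microtubules of the spindle midzone, was at 10.6, 10.2, 11.1 and 24.4 with control antibody and 18.5, 15.8, 14.8, 22.7 and 22.9 with GSK343 added. It was at 20.6, 16.9, 19.3, 15.3 and 13.7 with anti-CXCL10 and 23.9, 14.8, 19.1, 23.02 and 26.8 with both agents. Control antibody replicates 1, 2 and 3 were the lowest of 19, and replicate 5 of the same group was among the highest.

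**Figure D2:**
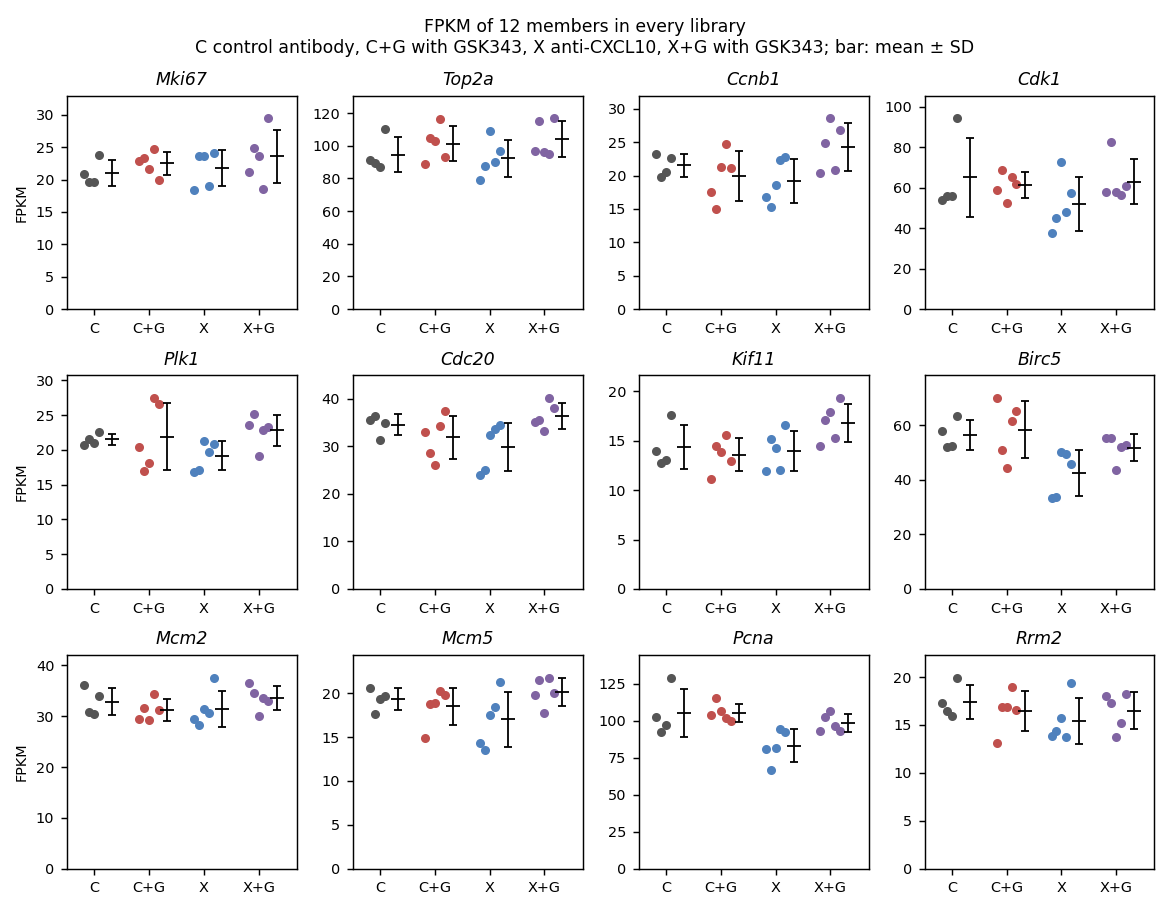
Points are single libraries of 12 members on a linear FPKM axis from 0, with the group mean ± SD beside them (C control antibody, n = 4; C+G with GSK343, X anti-CXCL10 and X+G both agents, n = 5 each). Groups overlap in most panels, and Birc5 with anti-CXCL10 (33.4 to 50.3 FPKM) lies below control antibody (52.0 to 63.6 FPKM).

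Replication members follow in the same order. Mcm2 and Mcm5 are subunits of the helicase ring. Mcm2 (ENSMUSG00000002870, chr6:88883475-88898780, minus strand) was at 36.2, 30.9, 30.5 and 33.96 with control antibody and 29.4, 31.7, 29.3, 34.5 and 31.3 with GSK343 added. It was at 29.4, 28.2, 31.4, 30.7 and 37.5 with anti-CXCL10 and 36.6, 34.6, 30.1, 33.5 and 33.1 with both agents, and all groups overlapped. Mcm5 was at 20.6, 17.6, 19.4 and 19.7 with control antibody and 14.9, 18.7, 18.9, 20.3 and 19.8 with GSK343 added. It was at 14.3, 13.6, 17.6, 18.4 and 21.3 with anti-CXCL10 and 19.8, 21.5, 17.7, 21.7 and 20.1 with both agents. The lowest Mcm5 values were in anti-CXCL10 replicates 1 and 2, and the groups overlapped. Cdc6 and Cdt1 load the helicase at origins. Cdc6 (ENSMUSG00000017499, chr11:98907801-98923940, plus strand) was at 3.14, 5.30, 3.31 and 4.42 with control antibody and 3.17, 3.44, 4.92, 2.76 and 2.33 with GSK343 added. It was at 2.70, 2.99, 2.63, 2.52 and 3.11 with anti-CXCL10 and 2.80, 3.79, 2.65, 3.41 and 5.37 with both agents. All anti-CXCL10 libraries lay below all control antibody libraries, though by a narrow margin, and Cdc6 is a low gene. Cdt1 was at 28.9, 26.1, 27.5 and 29.6 with control antibody and 22.9, 20.6, 23.98, 24.8 and 26.2 with GSK343 added. It was at 22.4, 22.3, 28.2, 27.6 and 27.6 with anti-CXCL10 and 25.9, 33.8, 24.4, 29.8 and 26.5 with both agents. The control antibody libraries and those with GSK343 added met without separating, the highest of the latter just above the lowest of the former.

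Pcna encircles DNA and tethers the polymerases. Pcna (ENSMUSG00000027342, chr2:132249162-132253314, minus strand) was at 103, 92.5, 97.4 and 129 with control antibody and 104, 115, 107, 102 and 99.9 with GSK343 added. It was at 80.9, 66.7, 81.5, 94.5 and 92.7 with anti-CXCL10 and 93.2, 103, 107, 96.6 and 92.8 with both agents. Most anti-CXCL10 libraries were below the rest, and replicates 4 and 5 reached the control antibody range. Pole (ENSMUSG00000007080, chr5:110286306-110337474, plus strand) was at 2.47, 2.48, 2.42 and 2.92 with control antibody and 3.60, 3.42, 3.55, 3.05 and 3.08 with GSK343 added. It was at 2.85, 2.44, 2.44, 3.08 and 2.46 with anti-CXCL10 and 3.87, 4.51, 2.58, 3.03 and 3.82 with both agents. With control antibody the treated libraries all lay above the untreated ones, and with anti-CXCL10 they overlapped. Prim1, the catalytic subunit of primase, was at 23.4, 22.8, 19.5 and 26.2 with control antibody and 18.4, 26.8, 18.9, 16.9 and 19.1 with GSK343 added. It was at 19.4, 19.1, 19.2, 23 and 27.5 with anti-CXCL10 and 27.3, 27.5, 24, 22.4 and 24.1 with both agents. GSK343 with control antibody held 4 low libraries and 1 high one, replicate 2.

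Rrm2, Tyms and Tk1 serve nucleotide supply. Rrm2 (ENSMUSG00000020649, chr12:24708241-24714146, plus strand) was at 17.3, 16.5, 15.9 and 19.9 with control antibody and 13.1, 16.8, 16.9, 18.97 and 16.5 with GSK343 added. It was at 13.8, 14.4, 15.7, 13.8 and 19.4 with anti-CXCL10 and 17.99, 17.3, 13.8, 15.2 and 18.2 with both agents, with all groups overlapping. Tyms, which makes thymidylate, had group means of 9.32 ± 0.370 with control antibody (SD, n = 4), 9.33 ± 1.45 with GSK343 added, 7.76 ± 1.40 with anti-CXCL10 and 9.35 ± 2.22 with both agents (SD, n = 5 each). Tk1, the thymidine salvage kinase, had means of 21.5 ± 1.48, 22.9 ± 2.91, 20.3 ± 2.20 and 22.4 ± 2.56 FPKM in the same order. The ranges of all groups overlapped for both genes. Of the G1/S members, Ccne1 had means of 7.93 ± 0.952, 7.28 ± 1.64, 7.55 ± 2.25 and 8.66 ± 1.43 FPKM in the same order. E2f1 had means of 8.002 ± 1.08, 8.56 ± 1.97, 7.15 ± 1.35 and 7.28 ± 1.81 FPKM. Neither separated any pair of groups.

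Differences between groups were tested with limma on log2(FPKM + 1), with adjustment over the 14385 genes, and a gene passed at an adjusted p under 0.05. Changes are log2 ± SE, and on this scale the change of a low gene such as Pole or Cdc6 is understated. Comparisons that use the same group share its libraries and are not independent of each other. Members also vary together from library to library, so a count of members on one side is not a count of independent observations. In the 6 comparisons, 0 of 59 members passed.

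With control antibody, no single member passed the test under GSK343, and the module as a whole was not tested. In that comparison 787 of 14385 genes passed (5.47%) and 0 of 59 members did. The estimates were higher with GSK343 for 28 members and lower for 31, and the median log2 change was -0.01, against -0.03 for all tested genes. At an unadjusted p under 0.05 were 3 members (5.08%), against 18.9% of all genes. These were Pole at 0.28 ± 0.11 (adjusted p = 0.171), Prc1 at 0.47 ± 0.22 (adjusted p = 0.259) and Cdt1 at -0.24 ± 0.10 (adjusted p = 0.206). Pole was the 1 member whose groups did not overlap (1.69% of members, 7.58% of all genes). The markers of proliferation were close to 0, Mki67 at 0.10 ± 0.12 with a 95% interval of -0.15 to 0.34 and Top2a at 0.10 ± 0.11 with -0.12 to 0.32. Medians by role lay on both sides of 0. They were 0.10 for Mki67 and Top2a, 0.09 for the 3 spindle proteins, 0.06 for the 6 mitotic kinases, 0.05 for the 5 centromere and kinetochore members, -0.03 for the 4 kinesins, -0.07 for the 6 MCM subunits, -0.08 for the 6 licensing members and -0.11 for Cdc20, Bub3 and Mad2l1. Those 3 serve the spindle checkpoint, as do the kinases Bub1, Bub1b and Ttk, which were at 0.12 ± 0.11, 0.08 ± 0.11 and 0.08 ± 0.10. Leaving out 1 library at a time moved the members' median between -0.04 and 0.04. For 58 of 59 members the 95% interval lay inside a 2-fold change of FPKM + 1 in either direction, Fen1 being the exception. For a low gene such as Pole or Cdc6 that bound is more than 2-fold in FPKM.

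A single library decided whether a member passed there. Without control antibody replicate 5, Prc1 passed at 0.75 (adjusted p = 0.0378), and without replicate 1 of control antibody plus GSK343, Cdc45, which activates the helicase, passed at 0.45 (adjusted p = 0.0351). Skeletal muscle markers (17 of 18 in the table) summed to 23.8 to 109 FPKM with control antibody and 58.3 to 2550 FPKM with GSK343 added. T cell markers (15 of 15) summed to 63.1 to 103 FPKM and 136 to 324 FPKM, and macrophage markers (12 of 14) to 518 to 1023 FPKM and 1215 to 2131 FPKM. B and plasma cell markers (6 of 12) summed to 170 to 391 FPKM with control antibody and 392 to 1039 FPKM with GSK343 added, and NK cell markers (8 of 11) to 17.6 to 32.03 FPKM and 28.6 to 88.6 FPKM. Fibroblast markers (12 of 12) summed to 1657 to 2109 FPKM with control antibody and 1734 to 2500 FPKM with GSK343 added. The part of these immune cells and of fibroblasts in the members' values was not tested. With the muscle score as a covariate, 6 genes and 0 members passed, and the members' median was -0.05. Without the 3 libraries highest in muscle markers, 15 genes and 0 members passed, and the median was -0.06. Dividing host cells and dividing tumor cells cannot be told apart in these values.

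With anti-CXCL10, all 59 members were estimated higher with GSK343, and none of these differences passed the test. Here 0 of 14385 genes passed (0.0%), the smallest adjusted p among the members was 0.9997, and 16 members (27.1%) were at an unadjusted p under 0.05, against 2.91% of all genes. The members' median log2 change was 0.20, against 0.01 for all genes, of which 53.2% were estimated higher. Mitosis members had a median of 0.23 and replication members 0.13. The 16 were 13 mitosis members and the replication members Pole, Pcna and Mcm5. Largest among these 16 were Ccnb1 at 0.33 ± 0.13 (95% interval 0.05 to 0.61), Pole at 0.31 ± 0.11 (0.09 to 0.53) and Birc5 at 0.30 ± 0.14 (0.01 to 0.58). Cdc20 was at 0.29 ± 0.11, Aurkb at 0.28 ± 0.12, Kif11 at 0.25 ± 0.11 and Pcna at 0.25 ± 0.10. Mki67, at 0.10 ± 0.11, and E2f1, at 0.01 ± 0.16, were nearer to 0. Ccnb2 and the kinesin Kif23 were the 2 members whose groups did not overlap (3.39% of members, 0.396% of all genes). Kif23 was at 11.9, 13.3, 14.5, 12.1 and 13.3 FPKM with anti-CXCL10 and 15.5, 16.2, 15.2, 14.5 and 15.2 FPKM with both agents. Its margin was narrow, 14.47 FPKM in anti-CXCL10 replicate 3 against 14.51 FPKM in replicate 4 of both agents.

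Medians of the roles lay between 0.11 and 0.27 in that comparison. They were 0.27 for the mitotic cyclins with Cdk1 (4 genes), 0.27 for Cdc20, Bub3 and Mad2l1, 0.25 for the 6 mitotic kinases, 0.21 for the 4 kinesins and 0.14 for the 5 centromere and kinetochore members. In replication they were 0.18 for the 6 licensing members, 0.18 for the 4 clamp and clamp loader members, 0.17 for the 4 polymerase and primase members, 0.14 for the 4 members of nucleotide supply and 0.11 for the 6 MCM subunits. The shift rested in part on single libraries. Without anti-CXCL10 replicate 1 the median was 0.16, with 57 members higher and 3 at an unadjusted p under 0.05. That count was 8 without anti-CXCL10 replicate 2, 10 without replicate 4 and 28 without replicate 5. It was 8 without replicate 2 and 9 without replicate 5 of both agents. Over 30 fits, the reported one and 29 with other settings or libraries, 56 to 59 members were estimated higher, and 0 passed in each.

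**Figure D3:**
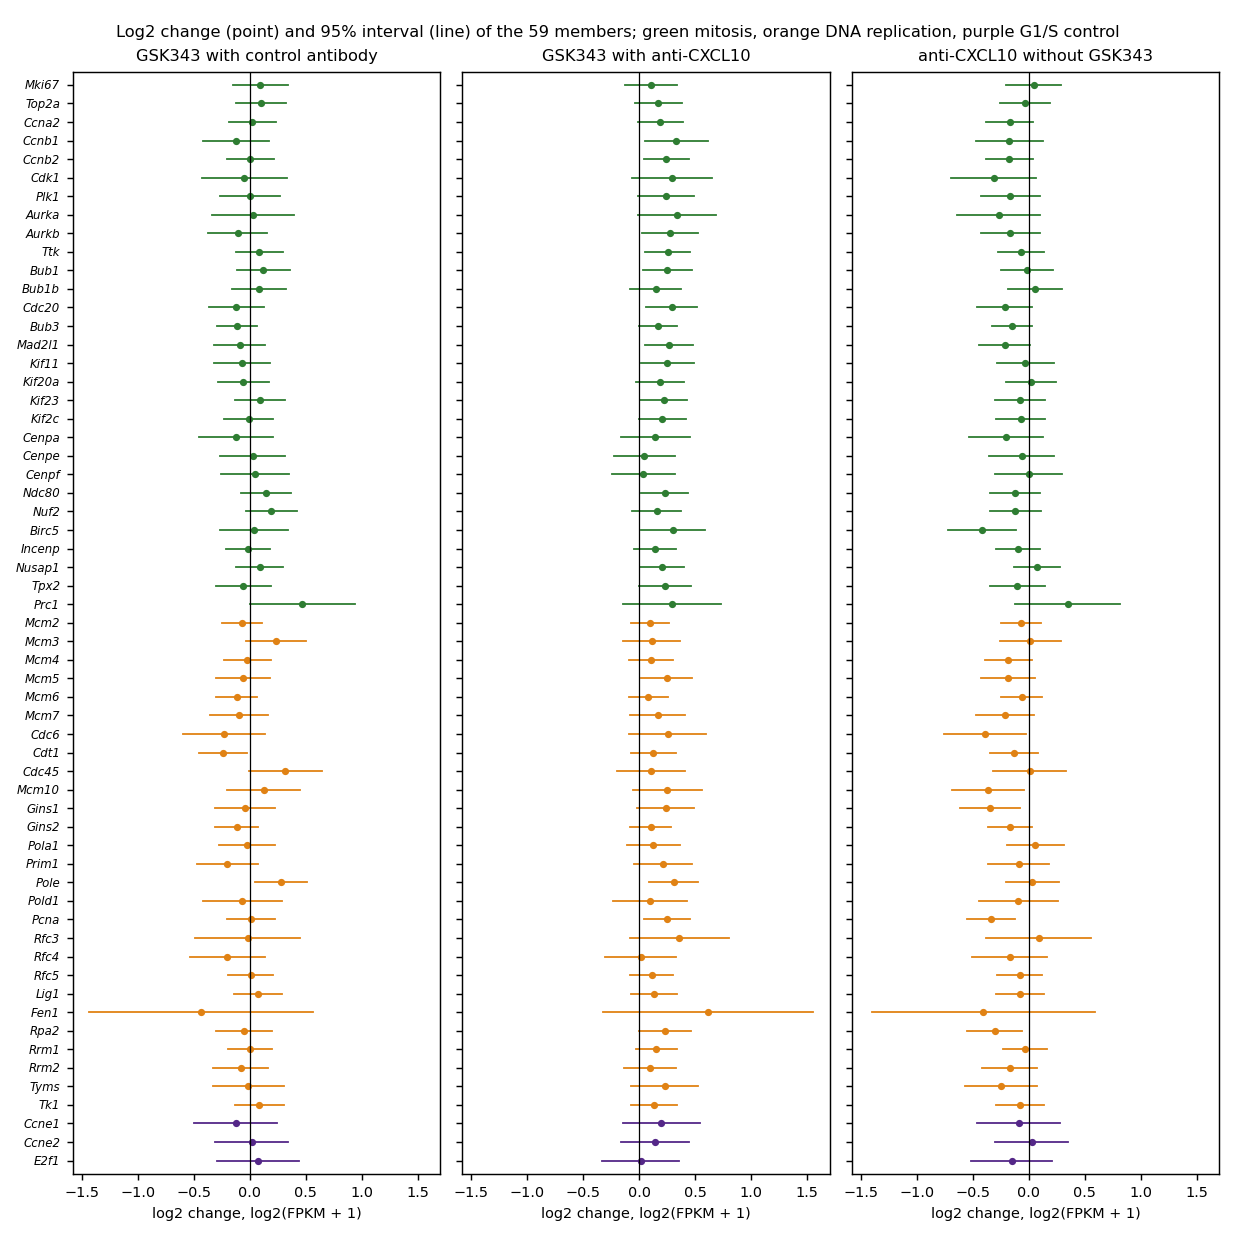
Points are log2 changes of the 59 members and lines their 95% intervals, on the log2(FPKM + 1) scale, for GSK343 beside control antibody (left), GSK343 beside anti-CXCL10 (middle) and anti-CXCL10 without GSK343 (right) (green mitosis, orange replication, purple G1/S). Points scatter on both sides of 0 on the left, lie to its right in the middle for 59 of 59, and lie to its left for 48 of 59 on the right, with most intervals crossing 0.

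The interaction, which asks whether the response to GSK343 differed between the antibodies, had 0 of 59 members past the threshold, against 9 of all genes (0.0626%). Estimates were higher under anti-CXCL10 for 53 members, against 57.3% of all genes, with a median of 0.20 against 0.04. At an unadjusted p under 0.05 were 7 members (11.9%), against 12.9% of all genes, so that share was near the background. They were Cdt1 at 0.36 ± 0.14 (adjusted p = 0.26), Cdc20 at 0.41 ± 0.16 (adjusted p = 0.273), Mad2l1 at 0.36 ± 0.15, Bub3 at 0.28 ± 0.12, Prim1 at 0.41 ± 0.18, Ccnb1 at 0.45 ± 0.20 and Aurkb at 0.39 ± 0.17. The spindle checkpoint kinases Bub1, Bub1b and Ttk were at 0.13 ± 0.15, 0.07 ± 0.16 and 0.17 ± 0.14. Cdc45 had the smallest p of the members below 0, at -0.21 ± 0.21. The count of 7 became 2 without control antibody replicate 5, 4 without its replicate 1, and 4 without replicate 1 of control antibody plus GSK343. It became 3 without anti-CXCL10 replicate 1, 3 without replicate 2 and 12 without replicate 5. A different response of a member under the 2 antibodies was therefore not shown, and an interval such as that of Ccnb2, -0.05 to 0.53, holds 0 as well as larger differences.

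Anti-CXCL10 without GSK343 gave lower estimates for 48 of 59 members, and 0 passed, against 2 of all genes (0.0139%). The median log2 change was -0.10, against -0.01 for all genes, of which 46.9% were estimated higher. At an unadjusted p under 0.05 were 6 members (10.2%), all lower, against 6.81% of all genes. These were Pcna at -0.34 ± 0.10 (95% interval -0.55 to -0.12), Birc5 at -0.42 ± 0.14 (-0.72 to -0.12), Gins1, a subunit of the active helicase, at -0.35 ± 0.13, Rpa2, which coats single-stranded DNA, at -0.30 ± 0.12, Mcm10 at -0.36 ± 0.15 and Cdc6 at -0.39 ± 0.17. Their smallest adjusted p was 0.684. Birc5 and Cdc6 were the 2 members whose groups did not overlap (3.39% of members, 2.53% of all genes). Mki67 at 0.04 ± 0.12, Top2a at -0.03 ± 0.11 and Kif11 at -0.03 ± 0.12 were close to 0, and Prc1 had the smallest p of the members above 0, at 0.35 ± 0.22. Without anti-CXCL10 replicate 5, 13 members in place of 6 were at an unadjusted p under 0.05. The count was 4 without anti-CXCL10 replicate 1, and also 4 without control antibody replicate 2 or replicate 5. Leaving out 1 library at a time, the members' median stayed between -0.15 (without anti-CXCL10 replicate 5) and -0.07.

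With GSK343 present in both groups, anti-CXCL10 gave higher estimates for 42 of 59 members, and 0 of 59 passed where 1456 of all genes did (10.1%). The median log2 change was 0.06, against 0.03 for all genes. At an unadjusted p under 0.05 were 5 members (8.47%), all higher, against 25.7% of all genes. They were Prim1 at 0.32 ± 0.12 (adjusted p = 0.102), the kinesins Kif20a at 0.26 ± 0.10 and Kif11 at 0.29 ± 0.11, Cdt1 at 0.23 ± 0.10 and Rfc3 at 0.47 ± 0.21. Mcm10 had the smallest p of the members below 0, at -0.24 ± 0.15. No member had groups without overlap, against 8.77% of all genes. Without replicate 2 of control antibody plus GSK343, Prim1 passed at 0.43 (adjusted p = 0.0289). The count at an unadjusted p was 3 without replicate 1 of that group and 2 without replicate 5 of both agents. It was 11 without the 3 libraries highest in muscle markers, where the median was 0.13. The median was 0.11 without replicate 3 of both agents and 0.10 without replicate 4 of control antibody plus GSK343. Muscle, T cell, NK cell, B or plasma cell, macrophage and fibroblast sums again reached highest in control antibody plus GSK343. The fibroblast sum was 1734 to 2500 FPKM there and 1536 to 1718 FPKM with both agents. With the muscle covariate 119 genes and 0 members passed, with a median of 0.12. The part of the immune cells and of fibroblasts was not tested.

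Against control antibody alone, both agents together had 42 of 59 members estimated higher, with 0 past the threshold and 1 of all genes past it (0.00695%). The median log2 change was 0.06, against -0.001 for all genes. At an unadjusted p under 0.05 were 4 members (6.78%), against 5.03% of all genes: Pole at 0.34 ± 0.11, Prc1 at 0.64 ± 0.22, Nusap1, a spindle protein, at 0.28 ± 0.10 and the checkpoint kinase Bub1 at 0.24 ± 0.11. The smallest adjusted p was 0.875. No member had groups without overlap, against 2.51% of all genes. Rfc4 had the smallest p of the members below 0, at -0.16 ± 0.16. The median was 0.10 without control antibody replicate 5 and 0.04 without its replicate 3. Without replicate 1 of both agents, 7 members were at an unadjusted p under 0.05. The 95% interval was inside a 2-fold change of FPKM + 1, not of FPKM, for 57 of 59 members (not for Fen1 and Prc1). It was so for 57 in the interaction (not for Fen1 and Rfc3) and for 58 in each of the other comparisons.

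Library by library, the members tended to deviate together. Members above their own 19-library mean numbered 39, 27, 16 and 45 with control antibody, and 22, 37, 22, 50 and 40 with GSK343 added. They numbered 4, 8, 23, 10 and 42 with anti-CXCL10, and 36, 55, 29, 40 and 48 with both agents. Anti-CXCL10 held the lowest counts and also a high one, so it overlapped every other group. The members' median deviation from their own mean, in log2, was -0.26 in anti-CXCL10 replicate 1 and -0.18 in replicate 2, and at the other end 0.16 in replicate 2 and 0.14 in replicate 5 of both agents. Anti-CXCL10 replicate 1 was the lowest of 19 libraries for 18 members and replicate 5 of both agents the highest for 14. Anti-CXCL10 replicate 1 also had the highest erythroid marker sum (5 of 8 markers in the table), 4515 FPKM against 178.6 to 3488 FPKM in the others. Replicates 1 and 3 of both agents, with 36 and 29 members above their mean, had 3101 and 3488 FPKM. Control antibody replicate 3, with 16 such members, had 2644 FPKM, and anti-CXCL10 replicate 2, with 8, had 761.9 FPKM. Replicate 5 of both agents had a hepatoma sum of 13190 FPKM. Anti-CXCL10 replicate 5, the highest of its group in members, had one of 13750 FPKM. Replicate 2 of both agents, with 55 members above their mean, had a hepatoma sum of 8701 FPKM. Replicate 4 of control antibody plus GSK343, with 50 such members, had one of 6020 FPKM. The part of red cells or of the tumor cell share in these differences was not tested.

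**Figure D4:**
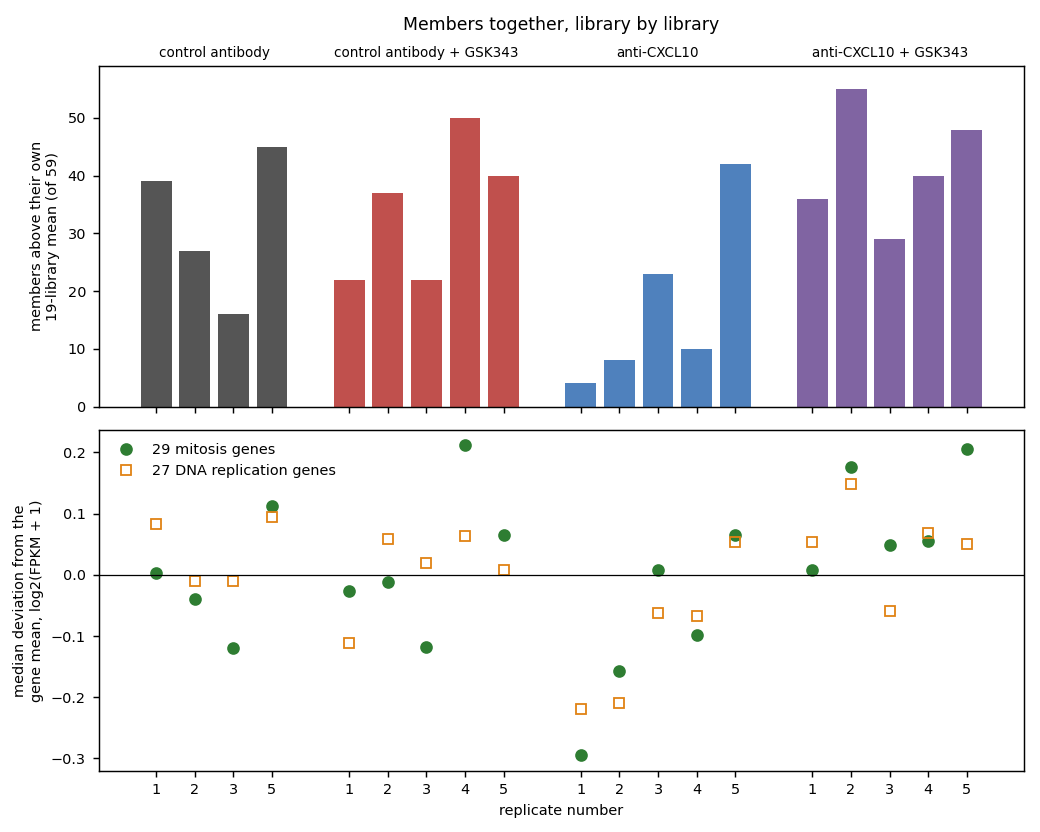
The upper panel counts, for each library, the members (of 59) above their own mean over the 19 libraries, and the lower panel gives the median deviation of the 29 mitosis genes (filled) and the 27 replication genes (open) in log2(FPKM + 1). Anti-CXCL10 replicates 1, 2 and 4 have 4, 8 and 10 members above their mean, and replicate 2 of both agents has 55.

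A further 150 genes of the cell cycle, among them other cyclins and kinases, replication factors, condensin, cohesin and ubiquitin ligases, were listed beside the module, and 150 of 150 were tested. With control antibody, GSK343 changed 1 of them (0.667%, against 5.47% of all genes), Ccnd2, a D-type cyclin of G1. Ccnd2 was at 3.20, 4.27, 3.12 and 4.04 FPKM with control antibody and 4.08, 7.18, 7.54, 6.98 and 7.11 FPKM with GSK343 added, and rose by 0.69 ± 0.15 (adjusted p = 0.0140). Replicate 1 of the treated group lay among the controls and the other 4 lay above them. The call was lost without control antibody replicate 1, at 0.64 (adjusted p = 0.0613), and in the fit of the compared groups alone, at 0.69 (adjusted p = 0.0726). It was lost with a smaller estimate with the muscle covariate, at 0.45 (adjusted p = 0.237), and without the 3 muscle-high libraries, at 0.48 (adjusted p = 0.294). Those 3 libraries are replicates 3, 4 and 5 of the group in which Ccnd2 was high. Replicate 1 of that group, where Ccnd2 was low, also had its lowest muscle (58.3 FPKM), T cell (136 FPKM) and NK cell (28.6 FPKM) sums. The same holds for its B or plasma cell (392 FPKM), macrophage (1215 FPKM) and fibroblast (1734 FPKM) sums. The part of the immune cells and of fibroblasts was not tested. With anti-CXCL10, 0 of the 150 passed, 14 (9.33%, against 2.91% of all genes) were at an unadjusted p under 0.05 and 119 were estimated higher with GSK343, with a median of 0.10. In the interaction 0 passed and 12 (8%) were at an unadjusted p under 0.05, against 12.9% of all genes, and Ccnd2 passed without replicate 1 of control antibody plus GSK343, at -0.91 (adjusted p = 0.0145). For anti-CXCL10 without GSK343 0 passed and 19 (12.7%) were at an unadjusted p under 0.05, against 6.81% of all genes. For both agents together 0 passed and 6 (4%) were at an unadjusted p under 0.05, against 5.03%.

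With GSK343 in both groups, anti-CXCL10 changed 5 of the 150 (3.33%), a smaller share than the 10.1% of all genes. Ccnd2 fell by 0.73 on the log2 scale (SE 0.14, adjusted p = 0.00526), from 6.58 ± 1.41 FPKM to 3.50 ± 0.364 FPKM. Smc4, a condensin subunit that compacts mitotic chromosomes, fell by 0.36 (adjusted p = 0.0486), from 68.1 ± 10.4 to 52.6 ± 5.69 FPKM. Anapc7, a subunit of the ubiquitin ligase that ends metaphase, rose by 0.24 ± 0.06 (adjusted p = 0.0251), from 16.6 ± 1.09 to 19.7 ± 0.662 FPKM. Timeless, a protein that stabilises replication forks, rose by 0.55 ± 0.16 (adjusted p = 0.0359), from 4.86 ± 0.523 to 7.72 ± 1.95 FPKM. Wee1, the kinase that holds Cdk1 inactive, rose by 0.50 ± 0.15 (adjusted p = 0.0424), from 3.18 ± 0.703 to 4.89 ± 0.843 FPKM (SD, n = 5 each). At an unadjusted p under 0.05 were 22 of the 150 (14.7%), against 25.7% of all genes. Ccnd2 kept its call in 19 of 19 fits that left out 1 library. It lost it with the muscle covariate, at -0.49 (adjusted p = 0.105), and without the 3 muscle-high libraries, at -0.52 (adjusted p = 0.131). The calls of the other 4 lay near the threshold. Of 19 such fits, 14 ended the call of Smc4, 10 that of Wee1, 7 that of Timeless and 4 that of Anapc7, with adjusted p-values of 0.0504 to 0.112. The fit of the compared groups alone ended all 4 with unmoved estimates, at adjusted p-values of 0.0869 for Smc4, 0.0661 for Wee1, 0.0613 for Timeless and 0.0597 for Anapc7. With the muscle covariate the estimates were -0.37 for Smc4 (adjusted p = 0.188), 0.51 for Wee1 (0.174), 0.25 for Anapc7 (0.115) and 0.45 for Timeless (0.242), so Timeless alone of the 4 became smaller. Without the 3 muscle-high libraries Wee1 was at 0.68 (adjusted p = 0.0729), Anapc7 at 0.29 (0.0676) and Timeless at 0.48 (0.218), and Smc4 kept its call.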

How the data were processed

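Gene expression in 19 HEPA1-6 tumor libraries was taken from 1 table of FPKM values deposited by the authors. The unit was inferred from the deposited values: column sums varied by 0.790% (coefficient of variation) after weighting by gene length and by 4.06% before. The submitters' processing notes name StringTie 1.3.3b, HTSeq 0.6.0, HISAT2 2.1.0, TopHat2 2.1.0 and Trimmomatic 0.33, and the builds mm10 and GRCm38. Their roles and the strand setting are not given in the sources used here. Every row had at least 1 FPKM in 4 or more libraries, so the table seems filtered before deposit. No whole-read steps were found among low values, so depth stayed unknown. Rows of 1 gene ID were added (21 rows, 8 IDs), and a gene entered the test with 1 FPKM in no fewer than 5 libraries (14385 genes, with 248 left out). The design had allowed for counts, and the test named there for FPKM was used. It was limma 3.58.1 (R 4.3.3) on log2(FPKM + 1) with trend and robust moderation, all 19 libraries in 1 model of 4 group means, 6 comparisons and Benjamini-Hochberg adjustment over all genes. The script was tested on simulated data.

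Members and gene lists were chosen with earlier results of these data known. Members named are 19 genes of a list, of which Tyms, Tk1, Ccne1 and E2f1 are given by group means. The member with the smallest p in each direction of each comparison and members with groups that did not overlap are also named. Members at an unadjusted p under 0.05 are named too, except that only some of the 16 for GSK343 with anti-CXCL10 are. Of the other cell cycle genes, those past the threshold are named. Ratios between partners, Fen1 with Tmem258 and members at the ends of a range were named after their values were seen. Alternatives were a pseudocount of 0.1, no filter or a filter of 5 FPKM, plain moderation, median-ratio scaling, quantile normalization, a replicate block, a muscle marker covariate, leaving out 3 muscle-high libraries, the compared groups alone, and leaving out each library. Gene coordinates are those of the deposited table. Promoter sequences are from RefSeq.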

Additional observations from a re-analysis of the deposited data

Results flagged for a closer look

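The 120 sets of 4 or 5 values were those of named members, and of the members' median deviation, in each group. Dixon's test at the 95% level set 1 library apart in 9, where chance gives about 1 in 20. Control antibody replicate 5 stood high for Cdk1 (94.2 FPKM, the others 54.1 to 56.1), Pole (2.92 FPKM, the others 2.42 to 2.48) and Prc1 (24.4 FPKM, the others 10.2 to 11.1). Replicate 2 of control antibody plus GSK343 stood high for E2f1 (12.01 FPKM, the others 7.22 to 8.32) and Prim1 (26.8 FPKM, the others 16.9 to 19.1). Anti-CXCL10 replicate 5 stood high for Aurkb (24.9 FPKM, the others 15.5 to 17.6), and replicate 2 of the same group low for Rfc4 (19.5 FPKM, the others 28.6 to 31.6). With both agents, replicate 2 stood high for Cdk1 (82.4 FPKM, the others 56.2 to 60.8) and replicate 1 low for Rfc4 (17.4 FPKM, the others 28.9 to 32.2).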

How the results depend on the processing

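Over 10 other settings and 19 fits without 1 library, 0 members passed in each comparison, except in fits without 1 library for GSK343 with control antibody (0 to 1) and for anti-CXCL10 with GSK343 (0 to 1). The members' medians moved by less than 0.0918, the SD of library medians within groups. Counts over all genes moved more. For GSK343 with control antibody the 787 genes became 6 with the muscle covariate, 15 without the 3 muscle-high libraries, 233 in the fit of the groups alone and 299 to 1389 without 1 library. For GSK343 with anti-CXCL10 the 0 genes became 0 to 1 without 1 library. In the interaction the 9 genes became 57 with the replicate block, 0 with the covariate, 1 without the muscle-high libraries and 0 to 476 without 1 library. For anti-CXCL10 without GSK343 the 2 genes became 0 with the replicate block, 0 without the muscle-high libraries, 1 in the groups alone and 0 to 2 without 1 library. With GSK343 the 1456 genes became 119 with the covariate, 497 without the muscle-high libraries and 837 to 1829 without 1 library. For both agents the 1 gene became 0 with the replicate block, 2 without the muscle-high libraries, 5 in the groups alone and 0 to 2 without 1 library. Among the other 150 cell cycle genes, counts without 1 library were 0 to 3 for GSK343 with control antibody, 0 to 1 in the interaction and 1 to 6 for anti-CXCL10 with GSK343. The cause of these moves was not tested. The reported fit did not pair the samples by replicate number. Same-numbered libraries correlated at -0.20 to 0.32 in 27 pairs, 12 of them over 0.1. Of the 19 libraries, 8 correlated best with their own number. Whether the numbers pair the samples in part was not settled. With the replicate block, Smc4 (adjusted p = 0.0857) and Timeless (adjusted p = 0.0618) did not pass for anti-CXCL10 with GSK343. Settings that need counts were not run, and the interaction could not be fitted on 2 groups alone. Depth is unknown, so the precision of low members such as Pole and Cdc6 cannot be separated into counting error and other spread.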
